A study of Mus musculus with 5 samples.

Results

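The genes of the cell division machinery were followed in the livers of 5 male mice homozygous for the eyeless allele of Pitx3 (Pitx3eyl-/-, 17 weeks old), a homeodomain transcription factor gene. Each animal's liver RNA was hybridised on 1 two-colour cDNA array together with RNA pooled from wild-type mice, and the deposited value of a probe is the log2 ratio of the colours. The members are the array probes whose gene symbol starts with Mcm, Cdc, Cdk or Anapc and a digit, with Cdkn, or with Ccn and a, b, c, d, e, g, h, k, l or t. These are 114 of 20355 probes, for 78 of 9930 named genes. The mutant RNA carried Cy5 on replicates 1, 2 and 4 and Cy3 on replicates 3 and 5. The pool, described alike for each array and treated as 1 control sample, held 4 wild-type mice per the sample labels and 6 per the labelling protocol, and no single wild-type animal was hybridised. The labels name the animals only by this genotype, with no inbred background. A log2 ratio above 0 is read as higher in the mutant; this direction is likely but was not stated in the labels.

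Cells that divide first license their replication origins, by loading the ring-shaped MCM helicase with the help of CDC6, and then fire them under the control of cyclin-dependent kinases (CDKs). Cyclins switch the kinases on, CDKN proteins hold them in check, CDC25 phosphatases release them, and the anaphase-promoting complex ends mitosis by marking cyclin B and securin for destruction. In the adult liver most hepatocytes rest outside the cycle and re-enter it after injury or loss of tissue, so transcripts of division are known to be scarce there. The symbols also take in genes with other tasks. CDK7, CDK9, CDK12 and CDK13 with cyclins H, K, L and T act in transcription, CDC42 is a GTPase of the cytoskeleton, CDK5 is best known from neurons, and CDC37 is a chaperone partner. The name of the cell cycle therefore fits only a portion of the members, and they are described by task.

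Testing required 4 measured arrays, at least 1 of them in each dye orientation, and this left 56 of the 114 member probes (49.1%) and 11300 of all 20355 (55.5%). Of the member probes, 35 had a value on all 5 arrays, 21 on 4, 30 on 3, 20 on 2 and 7 on 1, and 1 probe, of Cdc42, had none. Values were present for 69.5% of the member positions against 71.4% over all probes. On single arrays the shares were 73.7%, 61.4%, 64.0%, 68.4% and 79.8% for the members on replicates 1 to 5, and 78.1%, 67.9%, 69.7%, 66.7% and 74.6% over all probes. The members were thus measured less completely than all probes on replicates 1 to 3 and more completely on replicates 4 and 5. Over all probes, the median of an array lay between -0.19 and 0.23 and its SD between 1.51 and 1.72.

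Names of probes were checked on 19 probes of a list of hepatocyte genes, such as albumin and apolipoproteins. They had values at 87.4% of positions, and the rows 1 to 6 places further down at 66.3% to 75.8%. Between arrays, their SD had a median of 0.48, and the shifted rows had medians of 0.43 to 1.28, of which 1 (0.43, shifted by 1) was lower. The check bears on the list as a set, not on the name of a single probe. Since each value is a ratio to the pool, no level of a transcript in the liver can be read from it, and in whole liver fewer cells of a type cannot be told apart from less RNA per cell.

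Among the members, replication factors were the least completely measured of the tasks. The 12 probes of Mcm2 to Mcm7, Mcm10, Cdc6 and Cdc45 had values at 55.0% of positions, 7 of them had values on 2 arrays or fewer, and 4 could be tested. The share was 66.4% for the 22 probes of cell cycle kinases, cyclins and phosphatases, 70.6% for the 17 of the anaphase-promoting complex, 73.6% for the 25 of transcription and RNA processing and 80.0% for the 6 of the CDK inhibitors. The low share of the 12 probes did not extend to other replication genes. A list of the replication fork and nucleotide supply, followed below, had values at 79.0% of positions, against 71.4% over all probes. A list of origin licensing and firing also lay above all probes, and the other lists of the pathway lay below. The tested probes differed widely in how far their arrays lay apart. The SD between arrays ran from 0.15 for cyclin B2 to 4.63 for a probe of Cdk2, with a median of 0.83 over the members and 0.98 over all tested probes. An SD under 0.5 was found for 17 of 56 member probes (30.4%) and for 22.3% of all, and an SD over 2 for 12 member probes (21.4%) and for 18.6% of all.

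**Figure D1:**
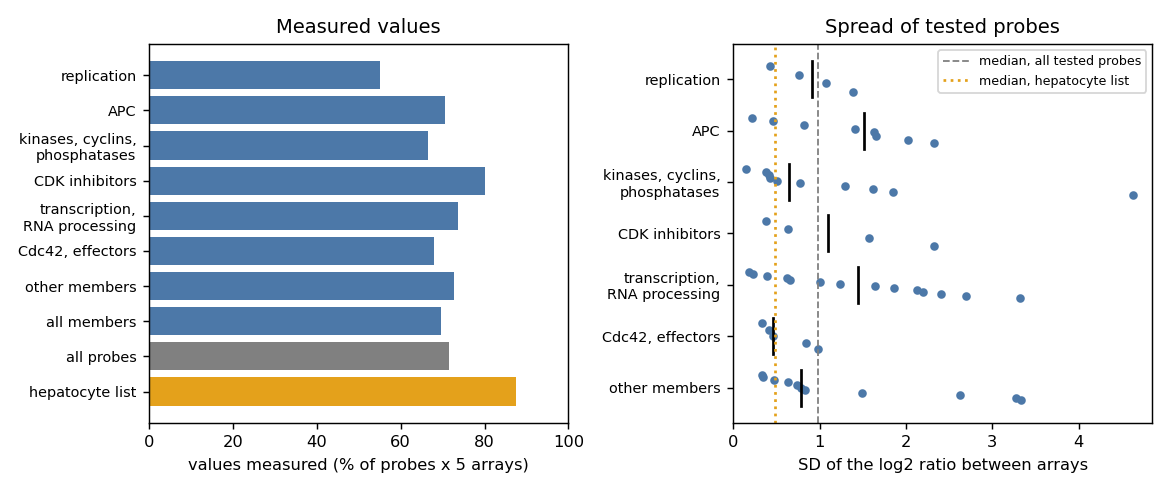
Left, bars from 0 give the percentage of positions (probes times 5 arrays) with a measured value for each task, for all members, for all 20355 probes and for the hepatocyte list. Right, each point is the SD between arrays of 1 tested member probe, the black stroke is the median of a task, and the lines mark the medians of all tested probes (0.98) and of the hepatocyte list (0.48); the replication bar is the shortest, at 55.0%.

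The 17 narrow probes belonged to 17 genes with several tasks. Among them were Cdk9, the kinase of the elongation factor P-TEFb, with array values from -0.30 to 0.13, and cyclin K, the partner of CDK12 and CDK13, with -0.21 to 0.38 for probe 14089. Anapc2, the cullin subunit of the anaphase-promoting complex, ran from -0.11 to 0.44 for probe 17866. Cdk10 ran from -0.48 to 0.42 and Mcm2, a helicase subunit, from -0.62 to 0.42. Each of these 5 probes had values on all 5 arrays, and each had values on both sides of 0. Their mutant coefficients, the fitted log2 ratio with both dye orientations weighted equally, lay between -0.03 for Mcm2 and 0.06 for Anapc2.

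None of the 56 tested member probes was called different from the pool: limma called 0 of them at an adjusted p under 0.05, and 0 of all 11300 probes (0.0%). With 5 arrays and no call among all probes, this does not show that the members were unchanged. The lowest adjusted p of a member was 0.999. At an unadjusted p under 0.05 there were 4 member probes, which is 7.1%, against 4.16% of all tested probes. Above 0 there were 3 of them, Cdc16 (probe 1920), Cdk12 (probe 11635) and Cdc42bpb, against 2.35% of all probes, and below 0 there was 1, Mcm6, against 1.81%. Without replicate 1, and with 3 measured arrays required, the number was 8 of 69 tested members, and over all probes the share was then 6.32%. The median mutant coefficient was 0.10 for the members and 0.04 for all tested probes. Of the member probes 38 lay above and 18 below 0, and of all tested probes 6087 lay above and 5213 below. With the swapped arrays turned, the members' median was -0.15, with 20 above and 36 below 0. With each array centred on its median these became 0.06, 35 and 21, and without replicate 5 the median was 0.04 (0.035).

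Arrays differed in which way the members leaned. For replicates 1 to 5 in turn, their median log2 ratios were -0.39, -0.03, 0.14 (0.145), 0.39 and 0.38, and the medians of all probes were -0.19, -0.04, -0.00, 0.11 and 0.23. On replicate 1, 57 of 84 member values lay below 0, and on replicate 5, 62 of 91 lay above 0. Replicates 1, 2 and 3 were the lowest in that order in both, while replicate 5 was highest over all probes and replicates 4 and 5 were level for the members. Between pairs of arrays, Pearson's r over the member probes ran from -0.36 (replicates 1 and 3, 56 probes) to 0.15 (replicates 1 and 4, 63 probes), as a description, since the arrays share the kind of pool. Over all probes it ran from -0.26 to 0.11.

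Promoter sequence was set beside the values, because E2F sites are known from genes of replication, and CCAAT boxes and the cell cycle homology region (CHR) from genes of mitosis. The RefSeq promoter table (GRCm38.p6) held 67 of the 78 member genes, and the 250 bases before the first listed start were searched on both strands. TTCCCGC or TTGGCGC, taken as E2F letters, stood in 11 of the 67 member promoters (16.4%) and in 5.7% of 27025 promoters of all genes. TTTGAA, taken as CHR letters, stood in 11 (16.4%) and in 16.3% of all. CCAAT stood in 32 (47.8%) and in 34.5% of all. The reverse strand of CCAAT shares 4 letters with the start of the second E2F motif, so a run of both counts for each. The members with E2F letters were Mcm5, Mcm6, Mcm7, Cdc6, Cdc25a, Cdc37, Cdc42, Cdk1, Cdk2, Cdk2ap2 and Cdkn2c. Their 10 tested probes had 6 mutant coefficients above and 4 below 0, with a median of 0.02, and the 40 tested probes without such letters had 28 above and 12 below, with a median of 0.11. A match is a description of letters and not of a bound site.

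4 promoters are shown: Mcm6 and Cdc16, the members with the lowest unadjusted p on either side of 0, cyclin B2, the tested member probe with the smallest SD, and Cdk1, the mitotic kinase, with letters of all 3 kinds. Capitals mark the E2F, CHR and CCAAT letters on either strand, and each sequence ends 1 base before the listed start, in GRCm38.p6.
Mcm6 promoter, chr1:128359706-128359955, minus strand: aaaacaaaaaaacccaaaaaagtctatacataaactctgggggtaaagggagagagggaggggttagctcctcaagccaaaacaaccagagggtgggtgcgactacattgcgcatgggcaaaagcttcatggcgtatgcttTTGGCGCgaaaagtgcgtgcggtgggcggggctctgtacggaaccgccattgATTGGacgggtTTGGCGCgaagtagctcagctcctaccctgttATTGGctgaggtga
Cdk1 promoter, chr10:69352913-69353162, minus strand: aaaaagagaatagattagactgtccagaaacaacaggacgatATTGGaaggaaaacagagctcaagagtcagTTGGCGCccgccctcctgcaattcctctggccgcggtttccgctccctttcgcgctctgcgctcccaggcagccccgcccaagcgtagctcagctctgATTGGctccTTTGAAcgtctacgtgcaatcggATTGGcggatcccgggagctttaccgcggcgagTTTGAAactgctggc
Ccnb2 promoter, chr9:70421555-70421804, minus strand: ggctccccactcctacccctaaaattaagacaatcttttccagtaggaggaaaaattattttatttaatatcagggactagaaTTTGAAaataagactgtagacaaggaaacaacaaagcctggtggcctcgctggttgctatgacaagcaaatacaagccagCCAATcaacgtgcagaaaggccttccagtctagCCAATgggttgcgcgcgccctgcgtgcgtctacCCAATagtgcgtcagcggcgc
Cdc16 promoter, chr8:13757406-13757655, plus strand: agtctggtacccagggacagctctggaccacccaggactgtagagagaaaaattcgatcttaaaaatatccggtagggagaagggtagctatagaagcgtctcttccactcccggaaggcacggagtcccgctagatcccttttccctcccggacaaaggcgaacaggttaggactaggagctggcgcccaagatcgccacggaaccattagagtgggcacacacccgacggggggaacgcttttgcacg
Mcm6 carried 2 matches of TTGGCGC and 2 of CCAAT. Cdk1 carried 1 of TTGGCGC, 2 of TTTGAA and 3 of CCAAT, and cyclin B2 carried 1 of TTTGAA and 3 of CCAAT. The window of Cdc16 held 0 matches.

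The tested subunits of the MCM helicase, Mcm2, Mcm4 and Mcm6, had mutant coefficients of -0.03 ± 0.30, -0.08 ± 0.37 and -1.69 ± 0.37 (SE). Those of Mcm2 and Mcm4 were smaller than their SE, and their single arrays lay on both sides of 0. Mcm6 was measured on 4 arrays, with log2 ratios of -0.61, -0.07, -3.05 and -0.27 on replicates 1 to 4. All 4 lay below 0, replicate 3 far from the others, which was the single Cy3 array behind this probe. The mutant coefficient was -1.69 ± 0.37 (SE; limma unadjusted p 0.00917, adjusted 0.999), and it was -1.003 (unadjusted p 0.152) with no dye term. Without replicate 3, Mcm6 could not be tested. Of its 4 values, 3 lay at ratios of whole numbers up to 20, a form described under the processing, and it left the test when such values were left out.

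Mcm2 gave -0.62, 0.31, -0.15, -0.25 and 0.42 on replicates 1 to 5, with 2 arrays above and 3 below 0. Mcm4, another helicase subunit, gave -0.30, -0.10, -0.93, 1.17 and 0.10, with replicate 4 high and replicate 3 low. Mcm10, a factor of helicase activation, gave -0.75, 0.28, 1.47, 1.85 and 0.03 for probe 3108, with a mutant coefficient of 0.61 ± 0.49 (SE). The coefficient was -0.11 when the 3 probes of Mcm10 were averaged. Probe 6190 of Mcm10 gave -5.51, -0.88 and -1.43 on replicates 1, 4 and 5, all below 0, and probe 3681 gave 1.12 and 0.86 on replicates 3 and 5, both above 0.

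The remaining helicase subunits were measured on few arrays. Mcm5 gave -1.72 on replicate 1 and -0.08 on replicate 5. Mcm7 gave -0.41 on replicate 1, 3.52 on replicate 4 and a code on replicate 2. Mcm3 gave 0.61 on replicate 3 and a code on replicate 2. Such a code, at the array constant plus or minus the log2 of 100000, was read as a ratio with 1 colour not measurable and set to missing. In the direction read here, the positive codes of replicate 2 lack the pool's signal. The negative codes of replicates 3 and 5 lack the mutant's signal. The members held 7 codes: Mcm3, Mcm7, Ccna1 and Cdkn1b (probe 1418) on replicate 2, Cdk20 (probe 11637) and Cdc42bpb (probe 19748) on replicate 3, and Cdk6 on replicate 5.

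Cdc6, the loader of the helicase, gave 0.87 and 2.07 on replicates 1 and 5 for probe 15604 and 0.41 on replicate 4 for probe 3650. Cdc45, which joins the helicase when an origin fires, gave -1.11 on replicate 5 alone. The 3 values of Cdc6 lay above 0, but with no array shared between its probes. No probe carried the symbol Cdc7 (0 probes), and that kinase was not analysed here.

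**Figure D2:**
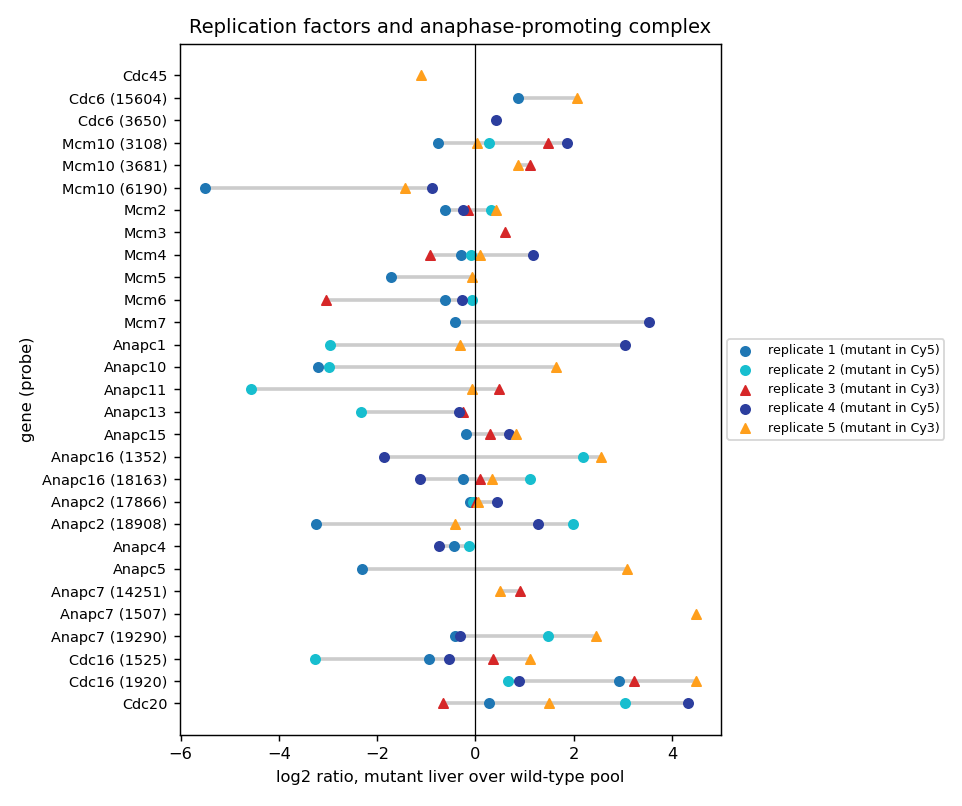
Log2 ratio of mutant liver over wild-type pool (x axis) for each probe of the replication factors and of the anaphase-promoting complex with a measured value, 1 row per probe, with the probe number where a gene has several. Circles are arrays with the mutant in Cy5, triangles arrays with it in Cy3, colours are replicates and grey bars span the range; probe 1920 of Cdc16 is the only row with 5 points on the same side of 0.

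In the anaphase-promoting complex, Cdc16 stood apart by 1 of its probes. Cdc16 encodes a subunit of the arch that holds the substrate adaptors. Probe 1920 gave 2.93, 0.67, 3.22, 0.88 and 4.49 on replicates 1 to 5, and all lay above 0, lowest on replicate 2. Its mutant coefficient was 2.67 ± 0.47 (SE; limma unadjusted p 0.00199, adjusted 0.999), between 2.31 and 2.99 when any 1 array was left out. Of the 5 values of probe 1920, 2 lay at simple ratios of whole numbers, a form described under the processing. The probe left the test when such values were left out. Probe 1525 of the same gene gave -0.94, -3.26, 0.35, -0.54 and 1.10, which lay on both sides of 0 and below probe 1920 on each array. With the probes averaged, the coefficient of Cdc16 was 1.12 (unadjusted p 0.0454).

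The other subunits lay on both sides of 0. Anapc2 gave -0.11, -0.06, 0.02, 0.44 and 0.04 for probe 17866, with a mutant coefficient of 0.06 ± 0.27 that was -0.03 without replicate 4. Its probe 18908 gave -3.25, 1.99, 1.27 and -0.42 on replicates 1, 2, 4 and 5, a far wider spread. Anapc15, which helps the complex shed its checkpoint inhibitor, gave -0.19, 0.29, 0.69 and 0.83 on replicates 1, 3, 4 and 5 (coefficient 0.41 ± 0.36). Anapc7, a subunit of the arch, gave -0.41, 1.47, -0.32 and 2.46 on replicates 1, 2, 4 and 5 for probe 19290 (coefficient 1.35 ± 0.55), high on replicates 2 and 5. Replicate 5 was the single Cy3 array behind this probe, and with no dye term the coefficient was 0.8. Probe 14251 of Anapc7 gave 0.90 and 0.49 on replicates 3 and 5 and probe 1507 gave 4.49 on replicate 5, all above 0. Anapc16 gave -0.26, 1.11, 0.10, -1.12 and 0.34 for probe 18163, and 2.18, -1.86 and 2.56 on replicates 2, 4 and 5 for probe 1352. None of these had an unadjusted p under 0.05.

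Cdc20, the activator that brings substrates to the complex in mitosis, gave 0.27, 3.03, -0.67, 4.32 and 1.49. The values were high on replicates 2 and 4 and below 0 on replicate 3. Its mutant coefficient was 1.48 ± 0.70 (limma unadjusted p 0.0878). Some subunits measured on 3 arrays were as wide. The scaffold subunit Anapc1 ran from -2.97 to 3.05, the substrate-binding Anapc10 from -3.21 to 1.65 and the RING subunit Anapc11 from -4.57 to 0.48. Anapc4 gave -0.45, -0.14 and -0.74 on replicates 1, 2 and 4, all below 0 and all with the mutant in Cy5.

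Among cyclins of the cell cycle, cyclin B2 had the narrowest spread of all tested members. Ccnb2, a mitotic cyclin, gave 0.56, 0.61, 0.52 and 0.85 on replicates 1, 2, 3 and 5 for probe 8519. All 4 lay above 0 and within 0.34 of each other, in both dye orientations. The mutant coefficient was 0.63 ± 0.31 (SE; limma unadjusted p 0.109, adjusted 0.999), between 0.55 and 0.72 when any 1 array was left out. Probe 6047 of Ccnb2 gave -2.79 and 0.68 on replicates 3 and 5, so the probes differed on replicate 3. With both averaged, the coefficient was 0.20 (unadjusted p 0.676).

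Cyclin A2, of S phase and mitosis, gave -1.82, -5.31 and 3.31 on replicates 2, 3 and 4 for probe 3536, and -0.91 and 0.04 on replicates 4 and 5 for probe 10601. On replicate 4, the only array they shared, the probes lay on opposite sides of 0. Cyclin E1, which starts S phase with CDK2, gave 0.55, 0.17, 0.53, -1.34 and 0.17. It lay above 0 on each array but replicate 4. Cyclin A1 gave 0.25 on replicate 5.

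Of the D cyclins, which answer to growth signals, Ccnd2 gave -1.94, 1.99, -0.94 and 1.28 on replicates 1, 3, 4 and 5 for probe 16886. It lay below 0 on both arrays with the mutant in Cy5 and above 0 on both in Cy3, and its mutant coefficient was 0.10 ± 0.37 (-0.08 without replicate 3 and -0.15 without replicate 4). Probe 20230 gave -1.88 on replicate 1 and 1.73 on replicate 4, and with both averaged the coefficient was 0.44 (unadjusted p 0.434). Ccnd3 gave -1.01, 2.90 and 1.46 on replicates 1, 3 and 4. No probe carried the symbols Ccnd1, Ccnb1 or Ccne2 (0 probes each), and these were not analysed here.

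The kinases of the cycle were measured sparsely. Cdk1 gave -1.16 and -0.08 on replicates 1 and 5, Cdk4 gave -1.62 and 1.24 on the same arrays, and Cdk6 gave 2.59 and -0.53 on replicates 3 and 4. Cdk2, the kinase of S phase, gave -3.41, -4.52, 5.65 and 0.87 on replicates 1 to 4 for probe 19021, the highest SD of the tested members. Its mutant coefficient was 1.65 ± 1.18, but -0.35 with no dye term, and it had a single Cy3 array, replicate 3. Probe 20240 of Cdk2 gave -0.66, -2.37, 0.43, 0.74 and 0.53. On the 4 shared arrays both probes of Cdk2 had the same sign, though the sizes differed. With both averaged, the coefficient was 0.11 (unadjusted p 0.884).

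CDC25 phosphatases remove the inhibitory phosphates from CDKs. Cdc25a gave 0.29, -0.69, -0.63, -0.14 and -0.07 for probe 7658 and 0.27, -0.90, 0.17, -0.32 and 0.25 for probe 15431, and the probes shared a sign on 3 of 5 arrays. Cdc25b gave -0.05, 0.73, 0.33, 0.11 and -0.42. Cdc25c gave -0.24, 0.72, 3.69, -0.29 and 0.80, with replicate 3 far above the rest, and a mutant coefficient of 1.16 ± 0.51 (limma unadjusted p 0.0684). Cdc14b, a phosphatase that opposes CDKs, gave 0.26, 0.44, -0.38, 0.58 and 0.47 for probe 3015, while its probe 5480 ran from -2.73 to 7.24 on 3 arrays and probe 8050 gave 1.05 on replicate 4.

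**Figure D3:**
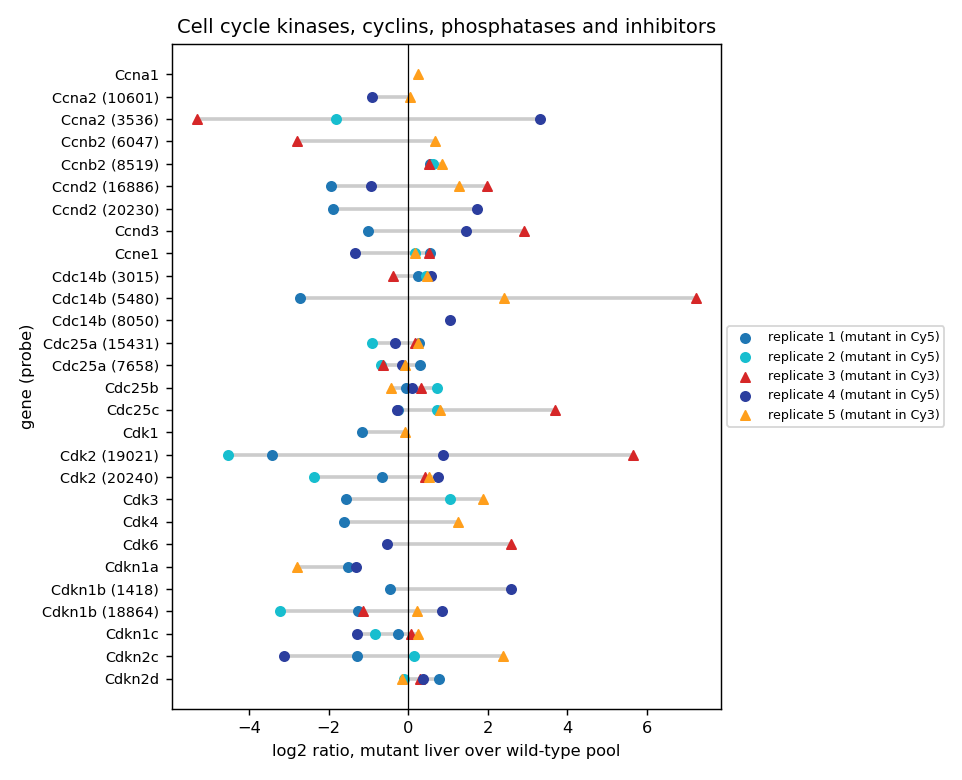
Log2 ratio of mutant liver over wild-type pool (x axis) for each probe of the cell cycle kinases, cyclins, phosphatases and CDK inhibitors with a measured value, 1 row per probe. Circles are arrays with the mutant in Cy5, triangles arrays with it in Cy3, colours are replicates and grey bars span the range; cyclin B2 (probe 8519) has the shortest bar of the rows with 4 or 5 points and Cdk2 (probe 19021) the longest.

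CDK inhibitors of the CIP/KIP family had most of their array values below 0, where over all members 189 of 396 values lay below 0. Each of their probes was below 0 on replicate 1, where 57 of 84 member values were. Cdkn1a, which encodes p21, the inhibitor induced by p53, gave -1.50, -1.31 and -2.79 on replicates 1, 4 and 5. All 3 lay below 0, in both dye orientations, but 3 arrays were too few for the test. Cdkn1b, which encodes p27, gave -1.27, -3.21, -1.15, 0.85 and 0.23 for probe 18864, below 0 on 3 of 5 arrays (mutant coefficient -0.83 ± 0.66). Its probe 1418 gave -0.44 and 2.60 on replicates 1 and 4 and a positive code, set to missing, on replicate 2. Cdkn1c, which encodes p57, gave -0.26, -0.82, 0.06, -1.27 and 0.25 (coefficient -0.31 ± 0.29), below 0 on the Cy5 arrays and above 0 on the Cy3 arrays.

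The INK4 inhibitors, which bind CDK4 and CDK6, had values on both sides. Cdkn2c gave -1.29, 0.14, -3.13 and 2.38 on replicates 1, 2, 4 and 5. Cdkn2d gave 0.78, -0.09, 0.29, 0.37 and -0.15, a narrow range (coefficient 0.21 ± 0.29). Neither these nor the tested CIP/KIP probes had an unadjusted p under 0.05 in limma. No probe carried the symbols Cdkn2a or Cdkn2b (0 probes each).

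Kinases and cyclins of transcription made up 25 probes with the RNA processing factors, of which 14 were tested, 10 above and 4 below 0, with a median of 0.38. Cdk12, which phosphorylates RNA polymerase II, gave -0.12, 1.53, 1.22, 1.35 and 1.07 for probe 11635. It lay above 0 on each array but replicate 1, with a mutant coefficient of 1.03 ± 0.36 (limma unadjusted p 0.0333, adjusted 0.999). Leaving out replicate 2, 3, 4 or 5 took the unadjusted p to between 0.0872 and 0.13. Probe 15315 of Cdk12 gave 0.55, -2.83, 0.64 and 0.08 on replicates 1, 2, 3 and 5 (coefficient -0.39 ± 0.66). Probe 15613 gave -1.41, 1.67 and -2.54 on replicates 1, 2 and 4. With its probes averaged, Cdk12 had 0.24 (unadjusted p 0.426). Its relative Cdk13 gave -0.26, 0.12, 0.01, -0.82 and 0.13 for probe 15188, while its probe 229 ran from -3.71 to 1.17 and probe 7852 from -2.99 to -0.28 on 3 arrays each.

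Cdk7 and its partner cyclin H, which form the CDK-activating kinase, were wide. Cdk7 gave -1.93, 3.42, -0.24 and 2.24 on replicates 1, 2, 4 and 5. Ccnh gave 0.89, -0.87, 0.12 and 5.24 on replicates 1, 3, 4 and 5, and its coefficient of 1.34 ± 1.10 was -0.18 without replicate 5. Cyclin T1, the partner of CDK9, gave 0.70, -0.69, -0.57, 1.73 and 1.92 for probe 13927 and -1.97, -0.81, 1.77 and 2.74 on replicates 1, 2, 4 and 5 for probe 7244, high on replicates 4 and 5 by both. The coefficient of probe 7244 was 1.20 ± 0.84, and 0.50 with the probes averaged. Replicate 5 was the single Cy3 array behind probe 7244, and with no dye term the coefficient was 0.43. Cyclin L2, a splicing-associated cyclin, gave -0.16, 1.13, 1.14 and 0.92 on replicates 1, 3, 4 and 5 for probe 18270 (coefficient 0.76 ± 0.38). Its probe 3322 gave 0.36, -2.18, -2.25, 2.85 and 0.43 (coefficient -0.28), and probe 9887 gave 0.21, 0.42, 1.44 and -1.02 on replicates 1, 2, 3 and 5 (coefficient 0.27). With its probes averaged, cyclin L2 had 0.11 (unadjusted p 0.85).

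Of CDC42 and its effectors, 5 of 10 probes were tested, 4 above and 1 below 0. Cdc42bpb, a kinase activated by CDC42, gave 0.69, 1.63, 1.32 and 0.74 on replicates 1, 3, 4 and 5 for probe 18597. All 4 lay above 0 and none of them at a simple ratio, and the mutant coefficient was 1.10 ± 0.36 (1.095; limma unadjusted p 0.0355, adjusted 0.999). Leaving out replicate 1, 3, 4 or 5 took the unadjusted p to between 0.0679 and 0.174. Its probe 19748 gave -6.70 and -0.00 on replicates 1 and 2, below 0 on arrays where the first probe was above 0 or missing. With both averaged, the coefficient was 0.31 (unadjusted p 0.663). Cdc42 itself gave 0.81, 0.22, -0.31, -0.00 and 0.05 for probe 2472. Its probe 5167 gave -0.04, 1.08, 0.36, 2.29 and -0.00 (coefficient 0.64), with the same sign on 1 of 5 arrays.

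Among the remaining members, Cdk18 was the second with 1 sign on all 5 arrays. Cdk18, a kinase of the PCTAIRE group, gave -0.27, -0.18, -0.22, -1.86 and -0.15, with replicate 4 far below the rest (coefficient -0.48 ± 0.37, and -0.20 without replicate 4). Together with Cdc16 these were 2 of the 35 members with values on all 5 arrays, or 5.7%, against 5.99% of all such probes. Mcm3ap, a factor of mRNA export that is not itself a helicase subunit, gave -0.27, -1.02, 1.01 and -5.08 on replicates 1, 3, 4 and 5 (coefficient -1.34 ± 0.79, and -0.33 without replicate 5). Cyclin G1, a target of p53, gave 0.24, -0.00, 0.50, 0.41 and -0.67 for probe 4179 (coefficient 0.07 ± 0.31, and -0.23 without replicate 3). Its probe 3909 gave -5.25, -0.58 and -0.12 on replicates 1, 2 and 4, all below 0.

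The dye orientation moved some members further than the mutant coefficient did. limma called 0 member probes for the dye coefficient, which is the mean with the mutant in Cy5 minus the mean in Cy3, divided by 2, and 0 of 11300 probes in all (0.0%). At an unadjusted p under 0.05 there were 4 members of 56, against 7.38% of all tested probes. These were cyclin G1 (probe 6477, dye coefficient -2.69 ± 0.67), cyclin D2 (probe 16886, -1.54 ± 0.37), Cdk2 (probe 19021, -4.00 ± 1.18) and Mcm6 (1.37 ± 0.37). Probe 6477 of cyclin G1 gave -4.80, -0.41 and -2.57 on the Cy5 arrays and 2.73 and 2.83 on the Cy3 arrays, so its orientations did not overlap, and its mutant coefficient was 0.09. Of the 56 members, 30 had a dye coefficient that exceeded the mutant one in size. By construction these are the probes whose orientation means had opposite signs. The same share over all tested probes was not counted. Without replicate 1 the 4 members became 8 of 69, against 7.78% of all tested probes. Without replicate 4 they became 7 of 68, against 8.67%. These fits required 3 measured arrays, so more members were tested.

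**Figure D4:**
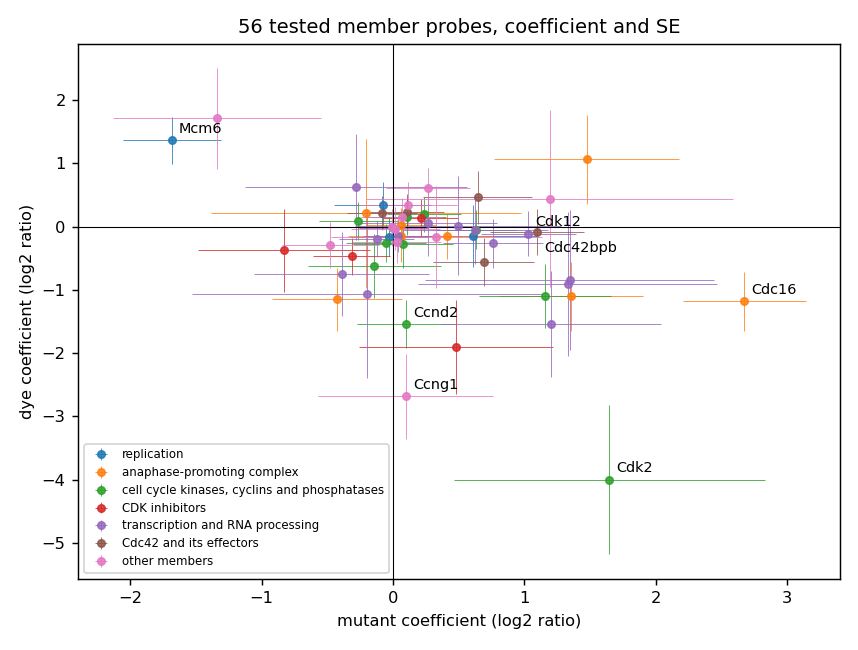
Mutant coefficient (x axis) against dye coefficient (y axis), both log2 ratios, for the 56 tested member probes, coloured by task, with SE bars. The labelled probes have an unadjusted p under 0.05 for either coefficient; Cdc16 lies furthest right, Mcm6 furthest left and Cdk2 lowest.

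Probes of the same gene gave a measure of how far a single probe can be read. 10 member genes had several tested probes, in 12 pairs, and 5 pairs lay on 1 side of 0 by both coefficients. On single arrays, 26 of 51 pairs of values (51.0%) had the same sign. The pairs often joined a narrow and a wide probe: the SDs were 0.22 and 2.33 for Anapc2, 0.47 and 3.33 for cyclin G1, and 0.23 and 3.32 for cyclin K. In none of the 12 pairs were both SDs under 0.5, and those of Cdc25a were 0.41 and 0.51.

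**Figure D5:**
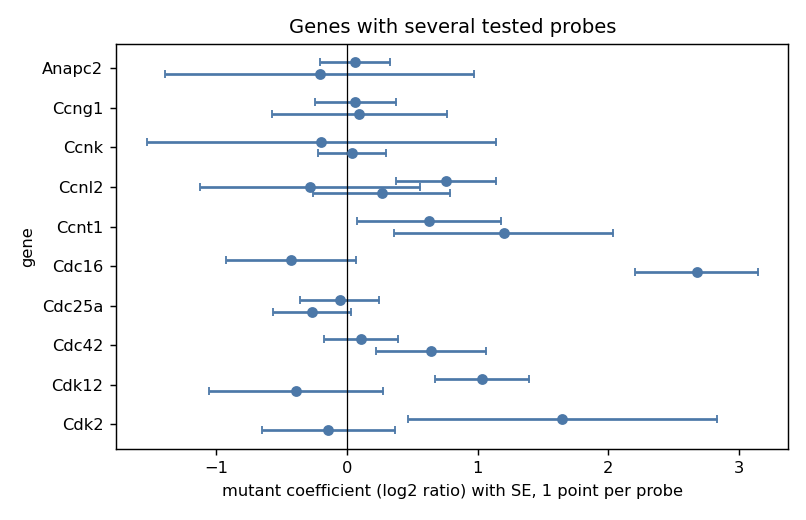
Mutant coefficient (log2 ratio, x axis) with its SE for each tested probe of the 10 member genes with several tested probes, 1 point per probe. The points of Cdc16, at 2.67 and -0.42, lie furthest apart.

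Other genes of the pathway, from lists named by function, gave no call either: limma called 0 probes of each list. In all, 2 probes, of Rb1 and Btrc, had an unadjusted p under 0.05, against 4.16% of all tested probes. They were 1 of 9 tested probes of the E2F and retinoblastoma family and 1 of 10 of the cyclin partners and ubiquitin ligases. For origin licensing and firing, 8 of 12 probes were tested, 3 above and 5 below 0 (median -0.10). Orc5, of the origin recognition complex, gave 0.55, 0.46, 0.12, 0.17 and 0.30, all above 0, and Orc3, of the same complex, gave -0.18, -0.09, 0.36, -2.21 and -0.14. For the replication fork and nucleotide supply, 15 of 21 probes were tested, 12 above and 3 below 0 (median 0.16), with 0 at an unadjusted p under 0.05. Rrm1, the large subunit of ribonucleotide reductase, gave 0.73, 0.24, 0.77, 0.31 and 0.27, all above 0 (coefficient 0.47 ± 0.27), and probe 4477 of Rrm2, the small subunit, gave 0.11, 1.70, 0.89, 0.07 and 0.77, all above 0. Probe 4530 of Rrm2 gave -2.51 on replicate 1 and 0.06 to 1.59 on the others. Pcna, the sliding clamp, gave 2.55, -1.23, 1.26 and 1.07 on replicates 2 to 5 for probe 10276, and -1.37 and 2.37 on replicates 1 and 4 for probe 4818.

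The E2F and retinoblastoma family had 9 of 19 probes tested, 5 above and 4 below 0 (median 0.13). Rb1, the repressor of E2F, gave -1.14, -3.38, -0.82 and -1.46 on replicates 1, 2, 3 and 5, all below 0 (coefficient -1.70 ± 0.51; limma unadjusted p 0.0256, adjusted 0.999). Its relative Rbl2 gave 0.71, 0.31, 0.55, -0.69 and -0.23 for probe 2155, and 1.82, -2.23 and -1.15 on replicates 2, 4 and 5 for probe 279. For mitosis and its checkpoint, 11 of 28 probes were tested, 7 above and 4 below 0 (median 0.19), and none had an SD under 0.5 (0 of 11). Fzr1, the second activator of the anaphase-promoting complex, gave -3.0, -2.66, 0.29, -4.64 and 4.46 for probe 11556, below 0 with the mutant in Cy5 and above 0 in Cy3. Its probe 18240 gave -0.23, 2.99, -0.91 and 1.23 on replicates 1, 2, 3 and 5, with replicates 2 and 3 on the other side of 0. For cyclin partners and ubiquitin ligases, 10 of 26 probes were tested, 4 above and 6 below 0 (median -0.12), with probe 7016 of Btrc, a substrate adaptor of the SCF ligase, at -2.41, -0.89, -1.62 and -1.04 on replicates 1 to 4 (coefficient -1.53 ± 0.49; limma unadjusted p 0.0317). Probe 7691 of Btrc gave 5.27, 0.94 and -1.98 on replicates 1, 3 and 5, with the opposite sign on both shared arrays.

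Markers of cells that divide or circulate in the liver were followed beside the members. Erythroid markers had 10 of 10 tested probes above 0 (median 0.26), 5 of them probes of the globin gene Hba-a1 at 0.13 to 0.27, and the list's median on an array ran from -0.06 on replicate 1 to 0.64 on replicate 4. Lymphocyte markers had 4 of 5 above 0 (median 0.27), Kupffer cell and macrophage markers 1 of 4 (median -0.21), endothelial and stellate markers 4 of 11 (median -0.03) and hepatocyte genes 6 of 15 (median -0.07). limma called 0 probes of these lists; at an unadjusted p under 0.05 there was 1 hepatocyte probe (Tat, -0.78), 1 macrophage probe (Ctss, 2.41) and 1 erythroid probe (Car2, 0.97). Both the members and the erythroid list were lowest on replicate 1, but so was the median of all probes (-0.19). On replicates 4 and 5 the members' medians were 0.39 and 0.38 and those of the erythroid list 0.64 and 0.10. The part of blood cells in the members' values was not tested.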

How the data were processed

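Total liver RNA of 5 mutant mice, 20 µg per labelling, was hybridised against a wild-type pool, 1 array per animal, per the labels' protocols. The deposited values are log2 ratios, as read from the values. For scanner, background correction and normalization, the sources used here give no entry. Many values equal, after an array-wide constant is subtracted, the log2 of a ratio of whole numbers up to 20 (tolerance 0.00101): 14.3% to 37.2% of an array's member values, and 8.7% to 10.8% after moving the constant by fixed offsets. Values over 12 in size are codes and were set to missing. Codes are positive on Cy5 arrays and negative on Cy3 arrays, so the swapped arrays were read as already turned. The number of arrays limits the precision. The labels give each array its own mouse.

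limma (3.58.1, R 4.3.3) fitted an intercept, which is the mutant coefficient, and a dye term to the 11300 probes measured on 4 or 5 arrays in both orientations, with Benjamini-Hochberg adjustment. The pool is 1 control sample, so no variation among wild-type animals enters the test. The script was tested on simulated data. Symbols came from the platform's annotation (14030 probes with 1 symbol, 5 with several, 6320 unnamed here), and a gene table changed 0 of them. Named in the text are members with 1 sign on all 5 arrays, the 3 lowest p of each symbol group, and core genes of the cycle; further genes were chosen after their values were seen, as were the division into tasks and the motifs. Members and lists were chosen with earlier results of these data known. Alternatives were other filters, centring, scaling, no dye term, turned arrays, a robust prior, kept codes, no simple ratios, averaged probes and each array left out. With 1 array left out, values on at least 3 arrays were required, so more probes could enter the test.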

Additional observations from a re-analysis of the deposited data

Results flagged for a closer look

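Among 30 named probes with 4 or 5 values, 6 had 1 array far from the others, by the gap to the nearest array relative to the range. For normally distributed values the rule flags about 1 in 20. It was not run over all tested probes, and some of the 30 were named for their p or sign. The count is therefore no sign of an excess in the members. On replicate 4, Cdk18 stood at -1.86 (next -0.27), cyclin E1 at -1.34 (next 0.17) and Anapc2 (probe 17866) at 0.44 (next 0.04). On replicate 1, Cdk12 (probe 11635) stood at -0.12 (next 1.07) and cyclin L2 (probe 18270) at -0.16 (next 0.92). On replicate 3, Cdc25c stood at 3.69 (next 0.80).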

How the results depend on the processing

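limma called 0 members for the mutant coefficient in the main setting and under each of 15 alternatives, and 0 for the dye coefficient under each of 14. The number of members with an unadjusted p under 0.05 for the mutant coefficient, 4 in the main setting, was 2 with values on all 5 arrays required, 7 with values on at least 3 arrays, 2 with simple ratios left out, and 4 to 8 with 1 array left out. For the dye coefficient, 4 became 2, 8 and 4 under the same 3 alternatives and 5 to 8 with 1 array left out. The median mutant coefficient of 0.10 became -0.15 with the swapped arrays turned and ran from 0.04 (0.035) to 0.22 with 1 array left out. Of 288 values of the 21 probes given with a coefficient by the naming rule, 24 had the opposite sign. Turning the swapped arrays makes the mutant coefficient what is otherwise the dye coefficient, and gave -0.15 for Mcm10, 1.71 for Mcm3ap, 1.37 for Mcm6, -0.15 (-0.155) for Anapc15, -1.11 for Anapc7, -1.18 for Cdc16, -1.09 for Cdc25c, -0.09 for Cdc42bpb, -0.11 for Cdk12, -4.00 for Cdk2, -0.049 for Ccnb2, -1.54 for Ccnd2, -0.84 for Ccnh, -0.27 for Ccnl2 and -1.54 for Ccnt1. Without a dye term Cdk2 had -0.35. With probes averaged Mcm10 had -0.11, Anapc2 -0.019 and Ccng1 -0.052. With 1 array left out, Ccnd2 ran from -0.15 to 0.35, Ccng1 from -0.23 to 0.36, Anapc2 from -0.026 to 0.11 and Ccnh from -0.18 to 2.87. A probe measured on 4 arrays has no value where all 5 are required, and the cause of the other shifts was not tested. No paired analysis was possible because all 5 arrays form 1 group.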
